A study of Mus musculus with 6 samples.

Results

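Asb2, Rara, Myc, Runx1t1, Foxo1, Atg5, Atg7 and Cxcr4 are 8 genes whose messenger RNAs have been reported as controlled by the RNA demethylase FTO in leukaemia, melanoma or fat cells. Here they were followed in whole mouse lung. They were chosen by their symbols from that earlier work. The rule uses no measured value, but the choice was made with earlier results of these data known. All 8 were found once each among the 57180 rows of the table, and all 8 passed the filter on low counts that left 16989 genes for testing. The lungs came from 2 groups of mice, each exposed to cigarette smoke in a model of chronic obstructive pulmonary disease. The group called FTO_OE_CS carried the genotype FTO_OE, an overexpression of FTO, and had 3 libraries. The group called WT_CS was wild type (WT) and also had 3 libraries. Every animal had been exposed to smoke and unexposed lungs were not analysed here, so the only contrast is that of genotype. How FTO was overexpressed, in which lung cells, and the age, strain, sex and length of exposure of the mice are details not given in the sources used. Nothing in the labels ties a library to an animal of its own, so p-values measure only the spread between these samples, which may be technical.

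N6-methyladenosine (m6A) is a methyl mark placed on adenosines of messenger RNA by a methyltransferase complex, mostly within the sequence context GGAC followed by a further base, and often close to the stop codon. FTO removes this mark. Reader proteins recognise the mark and can speed the decay of the marked transcript or stabilise it, so removing it has been reported to lower some messenger RNAs and to raise others. In acute myeloid leukaemia cells FTO was reported to lower the messenger RNAs of ASB2 and RARA and to raise that of MYC. In melanoma it was reported to raise CXCR4, and in fat cells to raise ATG5 and ATG7 and to change the splicing of RUNX1T1. The data described here are counts of RNA per gene: they contain no measurement of m6A, of splicing or of RNA decay.

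To show the kind of site on which FTO acts, the match to GGACT nearest to the stop codon is printed for each of the 8 transcripts. GGACT is the commonest form of the m6A context, with the A in its centre as the base that can be methylated. Each line gives 21 bases of the reference transcript from 5′ to 3′, and the capitals mark the match.
Asb2: agctttgaGGACTgggctgtc
Rara: cccaagatGGACTgccctctt
Myc: tctgaaaaGGACTtattgagg
Runx1t1: gatgctgaGGACTtaaaaaag
Foxo1: gagcgcttGGACTgtgacatg
Atg5: tctggatgGGACTgcagaatg
Atg7: tcagcgcaGGACTggaccgca
Cxcr4: tgtgtgtaGGACTgtagaact
The sequences are those of the protein-coding transcript with the longest coding region of each gene in GENCODE M21 (build GRCm38), and they are reference sequence, not reads of these lungs. The build that the authors used is not given in the sources used here. On GRCm38 the Asb2 window lies on the minus strand at chr12:103323779-103323799, the Myc window on the plus strand at chr15:61989831-61989851 and the Foxo1 window on the plus strand at chr3:52346230-52346250. The Runx1t1 window lies on the plus strand at chr4:13865945-13865965 and the Atg5 window on the plus strand at chr10:44303709-44303729. These 5 windows are in coding sequence. In transcript bases from the start of the stop codon, the central A lies at -161 in Asb2 and -65 in Myc. It lies at -134 in Foxo1, -358 in Atg5 and -611 in Runx1t1, so the nearest match is not always a near one. The windows of Rara (chr11:98973805-98973825, plus strand), Atg7 (chr6:114859057-114859077, plus strand) and Cxcr4 (chr1:128588566-128588586, minus strand) are in the 3′ untranslated region. On the same scale their central A lies at 180 in Rara, 46 in Atg7 and 269 in Cxcr4.

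The 8 transcripts held 45 matches to GGACT on the sense strand, the only strand searched, and they differed widely in how dense these were. Rara had 9 matches, or 2.66 per kb, and Myc 6, or 2.57 per kb, whereas the median over the 14634 tested genes with a protein-coding transcript was 1.06 per kb. Foxo1 had 13 matches in a transcript of 8665 bases (1.5 per kb) and Atg7 had 6 (1.54 per kb). Runx1t1, Atg5 and Asb2 had 0.985, 0.850 and 0.743 matches per kb, and Cxcr4 had a single match (0.554 per kb), in its 3′ untranslated region. GGACT occurred at least once in 91.8% of the transcripts searched, so holding a match does not set these 8 apart. A match is a description of the letters and not a methylated site.

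Fto itself was measured at 666.1, 650.1 and 740.8 CPM in the 3 FTO_OE_CS libraries, against 66.2, 69.9 and 68.6 CPM in the 3 WT_CS libraries. CPM here stands for counts scaled to a common library size and adjusted between libraries by the trimmed mean of M values (TMM). The fitted difference was 10.05-fold (95% interval 8.66 to 11.7; edgeR adjusted p = 1.45e-05), and all 3 FTO_OE_CS libraries lay above all 3 WT_CS libraries. The libraries held 16731850 to 21444907 counts. The summed levels of T cell, NK cell and cycling cell markers did not overlap between the groups. The summed CPM of 10 T cell markers was 259.7, 336.8 and 540.7 in FTO_OE_CS and 104.0, 97.9 and 75.5 in WT_CS libraries, and 3 of the 10 passed edgeR (10 of 10 passed DESeq2 and 0 limma-voom). For 10 natural killer (NK) and cytotoxic cell markers the summed CPM was 177.0, 230.5 and 423.8 in FTO_OE_CS and 53.7, 23.6 and 27.8 in WT_CS libraries, with a median log2 fold change of 2.61 and 1 of the 10 past edgeR (7 passed DESeq2 and 0 limma-voom). Of these 10, 8 lay wholly above in FTO_OE_CS, as did 7.96% of all genes tested, but Ncr1 and Klrb1c, the first 2 listed, overlapped. Ncr1 stood at 3.40, 2.96 and 1.98 CPM in FTO_OE_CS and 2.66, 0.788 and 0.550 CPM in WT_CS libraries. Klrb1c stood at 9.81, 6.48 and 4.15 CPM in FTO_OE_CS and 4.99, 2.26 and 2.04 CPM in WT_CS libraries. For 8 cycling cell markers the summed CPM was 171.4, 278.0 and 327.9 in FTO_OE_CS and 83.1, 124.8 and 70.8 in WT_CS libraries, and 0 of the 8 passed (8 of 8 had an unadjusted edgeR p under 0.05, 8 of 8 passed DESeq2 and 0 passed limma-voom). Over all genes tested, 0.0942% passed edgeR, 2.5% DESeq2 and 0.0294% limma-voom, and 9.44% had an unadjusted edgeR p under 0.05. In such bulk tissue a transcript can differ because cells of a type are more or fewer or because each holds more or less of it, and the 2 cannot be told apart.

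None of the 8 transcripts differed between FTO_OE_CS and WT_CS lungs beyond the spread between libraries. At an edgeR adjusted p of 0.05, 0 of 8 passed, where 0.0942% of all genes tested did (16 genes). At an unadjusted edgeR p under 0.05 the count was also 0 of 8, against 9.44% of all genes tested, 5.77% with a log2 fold change above 0. DESeq2 and limma-voom likewise passed 0 of 8, against 2.5% and 0.0294% of all genes they tested. In 0 of 8 did the 3 FTO_OE_CS libraries lie wholly above or below the 3 WT_CS libraries, which 14.9% of all genes tested did (7.96% wholly above and 6.9% wholly below). Log2 fold changes were above 0 for 5 of 8 (Asb2, Myc, Atg5, Foxo1 and Rara) and below 0 for 3 (Runx1t1, Cxcr4 and Atg7), and 51.5% of all genes tested were above 0. The median over the 8 was 0.10, against 0.0069 over all genes tested, and it ran from 0.052 to 0.13 when each library was left out in turn.

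**Figure D1:**
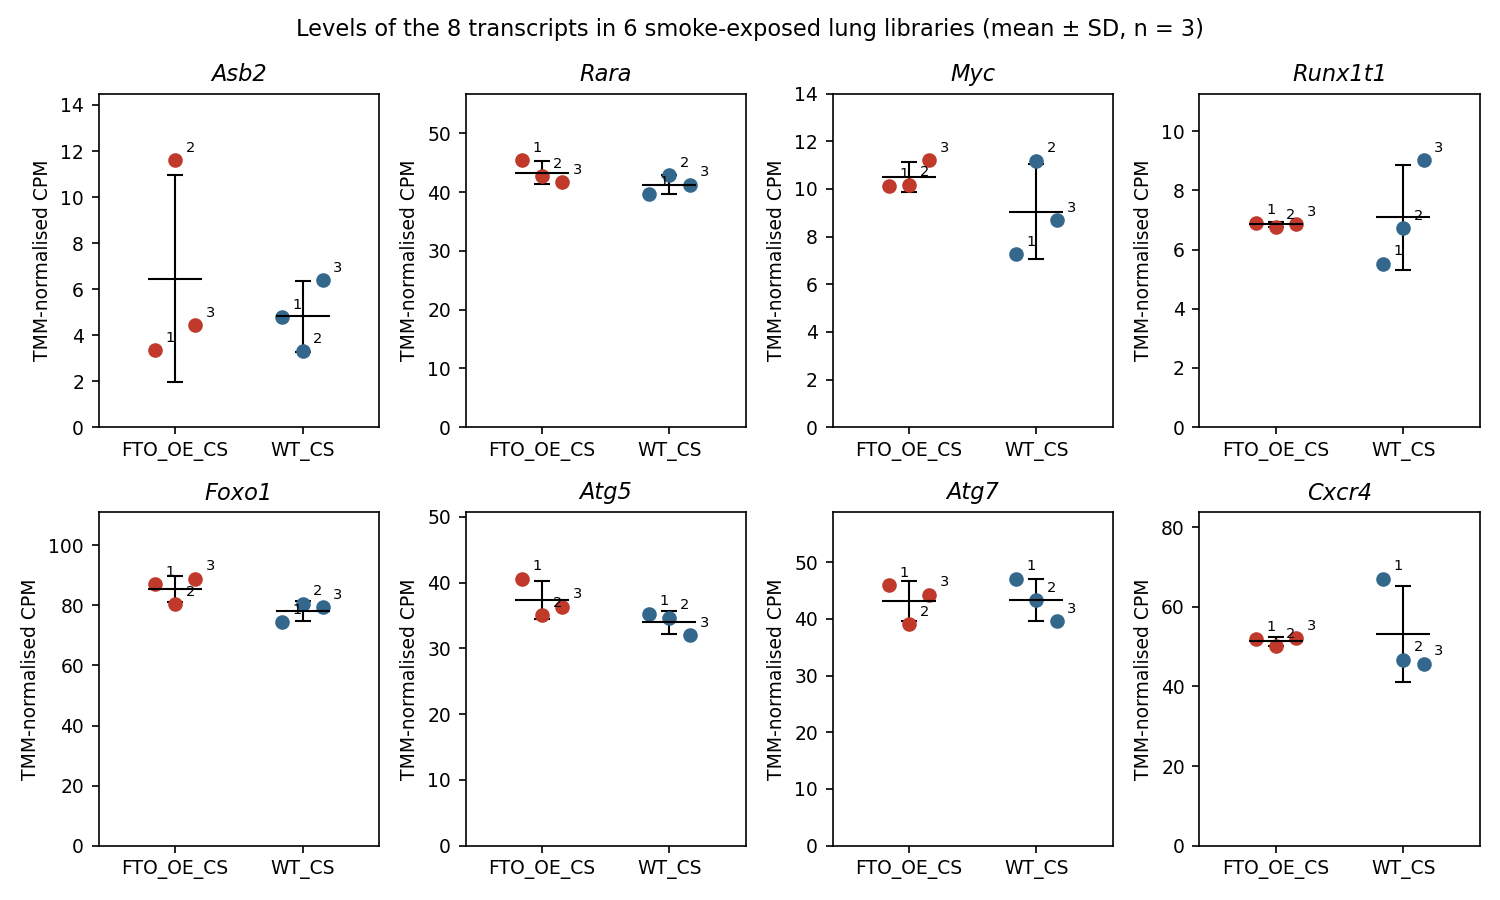
TMM-normalised CPM of each of the 8 transcripts (y axes from 0) in the 3 FTO_OE_CS libraries (red, left) and the 3 WT_CS libraries (blue, right), with the replicate number beside each point and a bar for the mean ± SD (n = 3). In every panel the groups overlap; for Asb2, FTO_OE_CS replicate 2 stands apart at 11.6 CPM.

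The precision differed between the 8 transcripts. For Rara the 95% interval of the fold ran from 0.930 to 1.18, for Foxo1 from 0.969 to 1.24, for Atg5 from 0.953 to 1.27 and for Atg7 from 0.850 to 1.16. The intervals of Cxcr4 (0.762 to 1.23), Runx1t1 (0.696 to 1.34) and Myc (0.868 to 1.55) were wider. That of Asb2 ran from 0.620 to 2.87, so a wide span of differences in either direction lay within it. A p that misses the threshold does not show that the groups are alike.

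**Figure D2:**
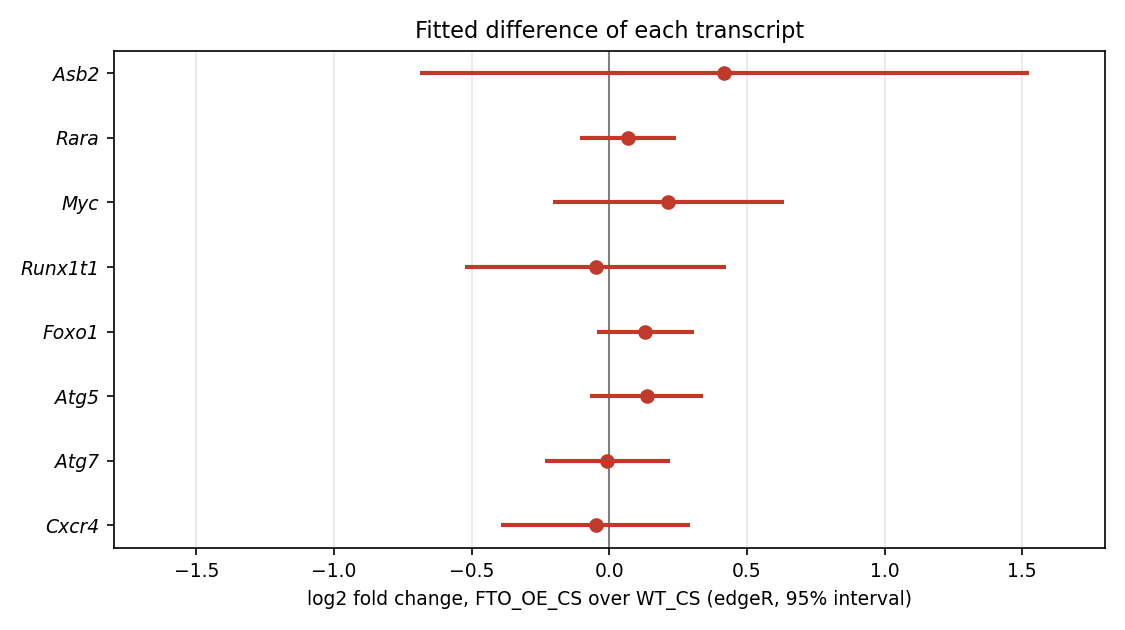
Fitted log2 fold change of FTO_OE_CS over WT_CS (points) with its 95% interval (lines) from the edgeR fit over all genes tested. All 8 intervals include 0; those of Rara and Foxo1 are narrow and that of Asb2, from -0.69 to 1.52, is the widest of the 8.

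ASB2 is the substrate-recognition subunit of a ubiquitin ligase that marks filamins for destruction, and it is made in blood cells and, as a separate isoform, in muscle. Asb2 (ENSMUSG00000021200) had 66, 204 and 96 counts in FTO_OE_CS libraries, or 3.35, 11.6 and 4.43 CPM, and 88, 63 and 116 counts in WT_CS libraries, or 4.77, 3.31 and 6.38 CPM. The FTO_OE_CS libraries thus hold both a value nearly as low as the lowest WT_CS library and the highest value of all 6. The mean was 6.46 ± 4.48 CPM in FTO_OE_CS and 4.82 ± 1.54 CPM in WT_CS lungs (SD, n = 3 each), with a log2 fold change of 0.42 ± 0.476 (SE) and an edgeR adjusted p of 0.861. Without FTO_OE_CS replicate 2 the log2 fold change turned to -0.31 ± 0.317 (SE), with an edgeR adjusted p of 0.795, so 1 library sets its direction.

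The libraries with high Asb2 also had the highest summed markers of heart and skeletal muscle. The summed CPM of 10 muscle markers was 206.9, 1228.1 and 350.9 in FTO_OE_CS replicates 1 to 3 and 159.7, 90.2 and 623.9 in WT_CS replicates 1 to 3. The highest library of each group in muscle markers was also its highest in Asb2. Myh6, the myosin heavy chain of atrial and adult mouse heart muscle, stood at 51.9, 499.4 and 92.6 CPM in FTO_OE_CS and at 36.5, 7.62 and 247.1 CPM in WT_CS libraries, and it was at 0 in none of the 6. Myh7, the second gene of the list, differed in pattern, at 12.1, 18.8 and 22.2 CPM in FTO_OE_CS and 17.3, 15.8 and 16.5 CPM in WT_CS libraries. It was highest in FTO_OE_CS replicate 3. Of the 10 muscle markers 0 passed the test (1 had an unadjusted edgeR p under 0.05, as did 9.44% of all genes tested, and 0 passed DESeq2 or limma-voom). The part of muscle RNA in the Asb2 values was not tested, and the table, which has 1 row per gene, does not separate the blood cell and muscle isoforms. The 2 genes whose pattern over the 6 libraries was most like that of Asb2, by the root mean square difference of log2 CPM centred per gene, were AI480526 (0.117) and Spaca6 (0.184) among 11091 genes compared. Of the ASB family and the ligase and filamin genes around ASB2, 15 of 24 were tested and 0 passed edgeR in either direction (0 also at an unadjusted p under 0.05, with DESeq2 and with limma-voom), with a median log2 fold change of -0.0094. Flnc, the muscle filamin, averaged 18.5 ± 14.2 CPM in FTO_OE_CS and 9.87 ± 3.83 CPM in WT_CS lungs, and it too was highest in FTO_OE_CS replicate 2 (34.8 CPM) and, within WT_CS, in replicate 3 (13.9 CPM). Its log2 fold change of 0.90 was 0.064 without FTO_OE_CS replicate 2. Flna, the filamin of most cell types, had a log2 fold change of 0.17 ± 0.110 (SE), with an edgeR adjusted p of 0.711.

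**Figure D3:**
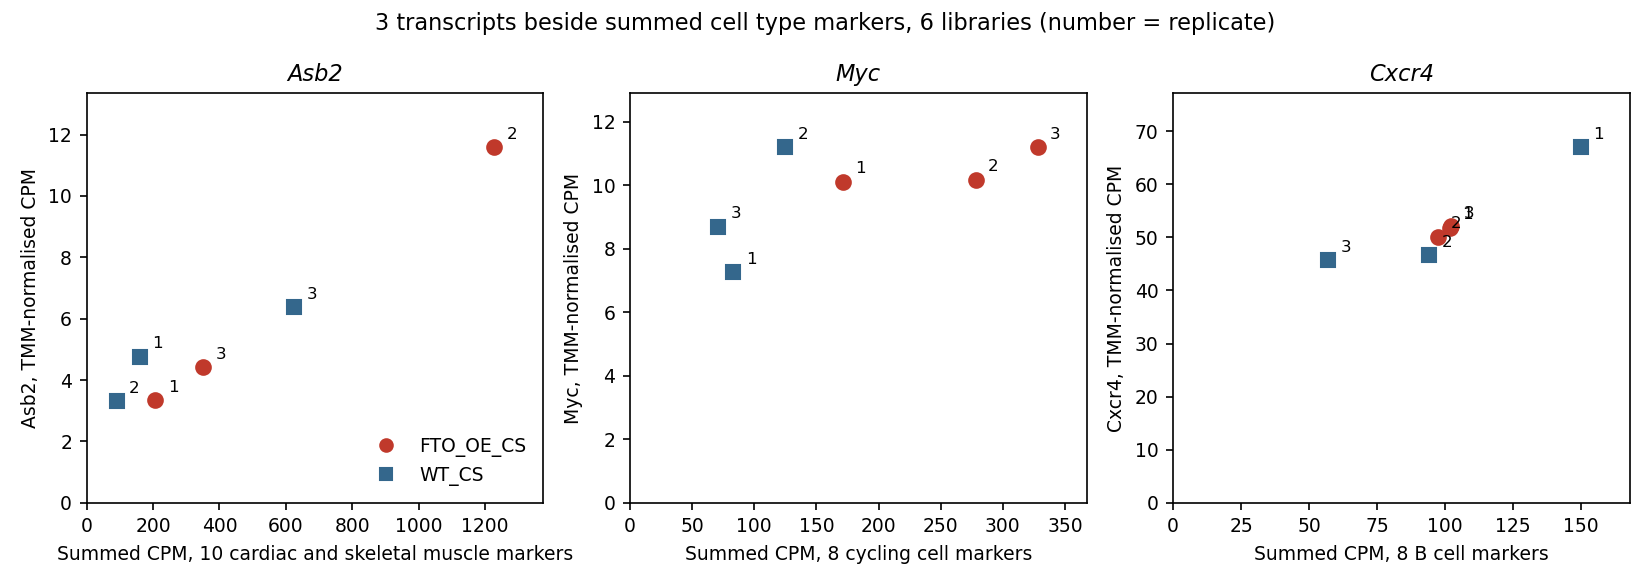
Level of Asb2, Myc and Cxcr4 in each library (y axes, TMM-normalised CPM) against the summed CPM of 10 muscle, 8 cycling cell and 8 B cell markers (x axes), with FTO_OE_CS libraries as red circles, WT_CS libraries as blue squares and the replicate number beside each. FTO_OE_CS replicate 2 is the highest library for Asb2 and for muscle markers, and WT_CS replicate 1 for Cxcr4 and for B cell markers, while Myc overlaps between groups that are apart in cycling cell markers.

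RARA is the retinoic acid receptor alpha, a nuclear receptor that pairs with an RXR partner and switches on genes when retinoic acid binds. In the lung retinoic acid signalling is known for its part in alveolar formation. Rara (ENSMUSG00000037992) stood at 45.4, 42.8 and 41.7 CPM in FTO_OE_CS libraries and at 39.6, 42.9 and 41.3 CPM in WT_CS libraries. All 6 values lie close together, and the highest WT_CS library is above 2 of the 3 FTO_OE_CS libraries. The means were 43.3 ± 1.93 CPM in FTO_OE_CS and 41.3 ± 1.65 CPM in WT_CS lungs (SD, n = 3 each), with a log2 fold change of 0.069 ± 0.075 (SE) and an edgeR adjusted p of 0.856. Of the other 21 genes of retinoic acid synthesis, binding, breakdown and response, 16 were tested and 0 passed edgeR, DESeq2 or limma-voom. An unadjusted edgeR p under 0.05 was found for 0 above 0 and 2 below 0, where 9.44% of all genes tested had one in either direction. The median log2 fold change of the 16 was -0.076, and -0.0033 without WT_CS replicate 2. Dhrs3, a retinal reductase that limits retinoic acid formation, averaged 66.3 ± 2.01 CPM in FTO_OE_CS and 79.2 ± 8.86 CPM in WT_CS lungs (SD, n = 3 each; edgeR adjusted p = 0.446). Rarg, the gamma receptor, averaged 47.9 ± 1.78 CPM in FTO_OE_CS and 56.4 ± 6.49 CPM in WT_CS lungs (edgeR adjusted p = 0.50). The retinol carrier gene Rbp4 averaged 12.5 ± 2.47 CPM in FTO_OE_CS and 9.47 ± 0.611 CPM in WT_CS lungs (edgeR adjusted p = 0.535). Arel1 and Map4k4 had the patterns most like that of Rara, at root mean square differences of 0.018 and 0.019 in log2 CPM among 11090 genes, and like Rara they were nearly flat.

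MYC is a transcription factor that pairs with MAX to drive ribosome production, metabolism and the cell cycle, against the MXD and MNT repressors that compete for MAX. Myc (ENSMUSG00000022346) had 199, 179 and 243 counts in FTO_OE_CS libraries, or 10.1, 10.2 and 11.2 CPM, and 134, 213 and 158 counts in WT_CS libraries, or 7.26, 11.2 and 8.69 CPM. Of the WT_CS libraries 2 lie below all FTO_OE_CS libraries, while replicate 2 lies level with the highest of them. The means were 10.5 ± 0.613 CPM in FTO_OE_CS and 9.05 ± 1.99 CPM in WT_CS lungs (SD, n = 3 each), with a log2 fold change of 0.21 ± 0.180 (SE) and an edgeR adjusted p of 0.797. Without WT_CS replicate 1 the log2 fold change was 0.084 and without WT_CS replicate 2 it was 0.40, in neither case past the threshold. The cycling cell markers given above did not overlap between the groups, and within WT_CS they were highest in replicate 2, which was also the highest in Myc. Their part in the Myc values was not tested.

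Among 12 partners and rivals of MYC, 0 passed edgeR, with a median log2 fold change of -0.0088. Of the 12, 2 had an unadjusted edgeR p under 0.05, both above 0, where 5.77% of all genes tested had one above 0. DESeq2 passed 1 of the 12, where 2.5% of all genes passed, and limma-voom 0. The MAX-binding repressor gene Mxd3, which proliferating cells express in S phase, averaged 3.13 ± 1.05 CPM in FTO_OE_CS and 0.803 ± 0.315 CPM in WT_CS lungs (SD, n = 3 each), a fitted 3.86-fold difference with an edgeR adjusted p of 0.139; DESeq2 gave it an adjusted p of 0.0034. Mnt averaged 31.3 ± 2.79 CPM in FTO_OE_CS and 25.4 ± 3.11 CPM in WT_CS lungs (edgeR adjusted p = 0.481). The glucose-responsive factor gene Mlxipl averaged 1.76 ± 1.21 CPM in FTO_OE_CS and 1.08 ± 0.229 CPM in WT_CS lungs (edgeR adjusted p = 0.764), and its log2 fold change of 0.69 was 0.0033 without FTO_OE_CS replicate 2. Of 16 genes that MYC is known to activate, 14 had log2 fold changes above 0, as did 51.5% of all genes tested. Of these 16, 0 passed edgeR, DESeq2 or limma-voom. An unadjusted edgeR p under 0.05 was found for 2, both above 0, where 5.77% of all genes tested had one above 0. The median of the 16 was 0.095, and it ran from 0.019 without FTO_OE_CS replicate 1 to 0.15 without FTO_OE_CS replicate 2. Cdk4, a kinase of the early cell cycle, was 1.18-fold, the lactate dehydrogenase gene Ldha 1.16-fold and the ribosome assembly gene Nop56 1.13-fold in FTO_OE_CS relative to WT_CS lungs, with edgeR adjusted p of 0.444, 0.529 and 0.620. The patterns most like that of Myc were those of Nup93 and Tbrg4, at root mean square differences of 0.077 and 0.078 in log2 CPM.

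CXCR4 is the receptor of the chemokine CXCL12 and holds leukocytes and progenitors in tissues. Lymphocytes, macrophages, neutrophils and capillary endothelium carry it in the lung. Cxcr4 (ENSMUSG00000045382) stood at 51.8, 50.1 and 52.2 CPM in FTO_OE_CS libraries and at 67.0, 46.7 and 45.7 CPM in WT_CS libraries. The FTO_OE_CS values are almost equal and fall between WT_CS replicate 1, the highest of the 6, and the other two. The means were 51.4 ± 1.11 CPM in FTO_OE_CS and 53.1 ± 12.0 CPM in WT_CS lungs (SD, n = 3 each), with a log2 fold change of -0.049 ± 0.147 (SE) and an edgeR adjusted p of 0.961. Without WT_CS replicate 1 the log2 fold change was 0.16 ± 0.078 (SE), with an edgeR adjusted p of 0.481.

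WT_CS replicate 1 was also the library with the highest summed B cell markers. The summed CPM of 8 B cell markers was 101.7, 97.5 and 102.4 in FTO_OE_CS and 149.9, 94.2 and 56.9 in WT_CS replicates 1 to 3, and 0 of 8 passed the test (0 at an unadjusted edgeR p under 0.05, 0 with DESeq2 or limma-voom). The B cell gene Ms4a1 was at 0 in none of the 6 libraries. The summed CPM of 8 monocyte and macrophage markers was 7739, 6368 and 7449 in FTO_OE_CS and 9889, 7937 and 7262 in WT_CS libraries, but most of it was Lyz2, at 7026, 5705 and 6715 CPM in FTO_OE_CS and 9176, 7387 and 6789 CPM in WT_CS libraries. Alveolar type 2 cells also express Lyz2, and the summed CPM of their 6 markers was 17631, 16377 and 19766 in FTO_OE_CS and 21751, 20540 and 18736 in WT_CS libraries, again highest in WT_CS replicate 1. The monocyte gene Ly6c2 lay the other way, at 105.1, 104.2 and 169.0 CPM in FTO_OE_CS and 76.1, 71.4 and 40.3 CPM in WT_CS libraries. Of the 8 monocyte and macrophage markers 3 had an unadjusted edgeR p under 0.05, all above 0, where 5.77% of all genes tested had one above 0. Past adjustment were 0 with edgeR, 1 with DESeq2, where 2.5% of all genes passed, and 0 with limma-voom. The summed CPM of 7 neutrophil markers was 2022, 955 and 2122 in FTO_OE_CS and 1621, 1428 and 1154 in WT_CS libraries, highest in FTO_OE_CS replicate 3. For 8 endothelial markers it was 3838, 3468 and 3546 in FTO_OE_CS and 4012, 4154 and 4063 in WT_CS libraries. Within WT_CS the endothelial sum was lowest in replicate 1. The 10 T cell markers given above summed to 259.7, 336.8 and 540.7 CPM in FTO_OE_CS and 104.0, 97.9 and 75.5 in WT_CS libraries. The part of these cell types in the Cxcr4 values was not tested. Csf1r, the growth factor receptor of macrophages, had the second most like pattern to that of Cxcr4 among 11090 genes, with a root mean square difference of 0.053 in log2 CPM, after the zinc finger gene Zfp1006 with 0.040.

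Of 14 genes around the receptor, 0 passed edgeR (4 had an unadjusted p under 0.05, 2 above and 2 below 0, where 9.44% of all genes tested had one; 1 passed DESeq2, where 2.5% of all genes did, and 0 limma-voom), with a median log2 fold change of 0.065. The ligand gene Cxcl12, named for its role after its values were seen, stood at 331.8, 368.5 and 438.7 CPM in FTO_OE_CS and at 282.5, 370.6 and 279.0 CPM in WT_CS libraries (edgeR adjusted p = 0.621). Ackr3, the scavenger receptor that removes CXCL12, stood at 49.4, 46.5 and 43.4 CPM in FTO_OE_CS and at 57.8, 55.1 and 54.6 CPM in WT_CS libraries. All 3 FTO_OE_CS values of Ackr3 lie below the 3 WT_CS values, at a ratio of 0.832 and an edgeR adjusted p of 0.287. Grk2, a kinase that desensitises chemokine receptors, averaged 135.4 ± 15.2 CPM in FTO_OE_CS and 108.9 ± 4.50 CPM in WT_CS lungs (edgeR adjusted p = 0.325). The chemokine gene Cxcl14 averaged 50.9 ± 4.96 CPM in FTO_OE_CS and 71.0 ± 11.2 CPM in WT_CS lungs, with an adjusted p of 0.248 by edgeR and 0.0472 by DESeq2.

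RUNX1T1, also called ETO, is a transcriptional corepressor that joins histone deacetylases to DNA-bound factors, and it is known from a fusion with RUNX1 in leukaemia and from fat cell formation. Runx1t1 (ENSMUSG00000006586) had 136, 119 and 149 counts in FTO_OE_CS libraries, or 6.91, 6.77 and 6.87 CPM, and 102, 128 and 164 counts in WT_CS libraries, or 5.53, 6.72 and 9.02 CPM. As with Cxcr4, the FTO_OE_CS values are close to each other and lie inside the WT_CS range. The means were 6.85 ± 0.0744 CPM in FTO_OE_CS and 7.09 ± 1.78 CPM in WT_CS lungs (SD, n = 3 each), with a log2 fold change of -0.050 ± 0.203 (SE) and an edgeR adjusted p of 0.972. Without WT_CS replicate 3 the log2 fold change was 0.16, with an edgeR adjusted p of 0.972. The splice forms that FTO was reported to change in fat cells cannot be seen in counts per gene. Ccdc85c and Daam2 had the most like patterns, at root mean square differences of 0.035 and 0.040 in log2 CPM. Fat cell markers varied by library: the summed CPM of 6 of them was 27.9, 82.9 and 20.1 in FTO_OE_CS and 27.6, 28.5 and 31.9 in WT_CS libraries, with Adipoq at 0 in WT_CS replicate 1. The part of fat cell RNA in the Runx1t1 values was not tested.

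Of 12 genes of the RUNX and ETO complexes, 0 passed edgeR, with a median log2 fold change of 0.098. An unadjusted edgeR p under 0.05 was found for 2, both above 0, beside the same 5.77% of all genes tested. With DESeq2 the same 2 passed, where 2.5% of all genes did, and 0 with limma-voom. The 2 were the transcription factor genes Runx3, best known from CD8 T cells, and Runx2, best known from bone. Runx3 stood at 10.7, 11.5 and 18.5 CPM in FTO_OE_CS and at 6.94, 6.78 and 5.50 CPM in WT_CS libraries. Runx2 stood at 15.8, 21.7 and 24.7 CPM in FTO_OE_CS and at 13.4, 9.98 and 9.13 CPM in WT_CS libraries. The fitted differences were 2.12-fold and 1.91-fold, with adjusted p of 0.161 and 0.167 by edgeR and 0.0026 and 0.0030 by DESeq2. Both were highest in FTO_OE_CS replicate 3, as were the summed T cell and NK cell markers given above. The NK list was not uniform: Ncr1 (1.98 CPM) and Klrb1c (4.15 CPM) were lowest of the FTO_OE_CS libraries in replicate 3. The part of T and NK cells in the Runx3 and Runx2 values was not tested. Tcf3, a partner of ETO proteins, averaged 38.4 ± 3.85 CPM in FTO_OE_CS and 32.1 ± 4.55 CPM in WT_CS lungs (edgeR adjusted p = 0.604).

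FOXO1 is a transcription factor held in the cytoplasm by AKT kinases when insulin or growth factors signal, and in the lung it is strong in endothelium and lymphocytes. Foxo1 (ENSMUSG00000044167) stood at 87.0, 80.5 and 88.9 CPM in FTO_OE_CS libraries and at 74.3, 80.5 and 79.4 CPM in WT_CS libraries. The groups overlap only in that FTO_OE_CS replicate 2 and WT_CS replicate 2 stand at the same level. The means were 85.4 ± 4.42 CPM in FTO_OE_CS and 78.1 ± 3.29 CPM in WT_CS lungs (SD, n = 3 each), with a log2 fold change of 0.13 ± 0.076 (SE). Its p was the smallest of the 8 (unadjusted p = 0.126 and adjusted p = 0.680 by edgeR). The patterns most like it were those of the RNA-binding protein gene Raly and the endosome gene Vps8, at root mean square differences of 0.014 and 0.019 in log2 CPM.

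Most other genes of the FOXO pathway had a fitted sign opposite to that of Foxo1. Of 13 genes of the other FOXO factors and of AKT signalling, 11 had log2 fold changes below 0, with a median of -0.14. Over all genes tested, 51.5% were above 0. Of the 13, 0 passed edgeR, DESeq2 or limma-voom. An unadjusted edgeR p under 0.05 was found for 2, both below 0, where 9.44% of all genes tested had one, 5.77% above 0. Those 2 were the related factors Foxo3 and Foxo4. Foxo3 stood at 86.4, 82.7 and 75.1 CPM in FTO_OE_CS and at 88.5, 126.2 and 106.8 CPM in WT_CS libraries, a ratio of 0.760 with an edgeR adjusted p of 0.382. Foxo4 averaged 48.4 ± 3.44 CPM in FTO_OE_CS and 56.1 ± 3.38 CPM in WT_CS lungs (edgeR adjusted p = 0.497). The growth factor receptor gene Igf1r averaged 83.9 ± 5.00 CPM in FTO_OE_CS and 98.9 ± 12.1 CPM in WT_CS lungs (edgeR adjusted p = 0.548). The difference between Foxo1 and the other FOXO genes was not tested. Of 19 genes that FOXO factors are known to activate, 0 passed edgeR, with a median of -0.022. An unadjusted edgeR p under 0.05 was found for 3 above and 2 below 0, beside the same 9.44% of all genes tested. With DESeq2 1 of the 19 passed, where 2.5% of all genes did, and 0 with limma-voom. Il7r, the interleukin-7 receptor of T cells, averaged 39.4 ± 3.23 CPM in FTO_OE_CS and 25.6 ± 6.14 CPM in WT_CS lungs, with an adjusted p of 0.250 by edgeR and 0.0369 by DESeq2. Klf2 and S1pr1, which endothelium and naive lymphocytes share, had log2 fold changes of -0.61 ± 0.194 and -0.33 ± 0.116 (SE), with edgeR adjusted p of 0.35 and 0.410. The summed CPM of 8 endothelial markers was 3838, 3468 and 3546 in FTO_OE_CS and 4012, 4154 and 4063 in WT_CS libraries. All 8 had log2 fold changes below 0, with 0 passing edgeR or limma-voom. An unadjusted edgeR p under 0.05 was found for 4, where 9.44% of all genes tested had one, and 1 passed DESeq2, where 2.5% did. The summed T cell markers given above stood higher in all 3 FTO_OE_CS libraries, while the summed B cell markers overlapped between the groups. The part of endothelial or lymphocyte RNA in the values of Foxo1 and the genes around it was not tested.

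ATG5 and ATG7 work in sequence in autophagy, the digestion of a cell's own contents: ATG7 is the activating enzyme that starts the joining of ATG12 to ATG5, and that conjugate then lets LC3 be attached to the growing membrane. Atg5 (ENSMUSG00000038160) stood at 40.6, 35.1 and 36.3 CPM in FTO_OE_CS libraries and at 35.3, 34.7 and 32.0 CPM in WT_CS libraries. Only FTO_OE_CS replicate 2 lies within the WT_CS range, just under its top. The means were 37.3 ± 2.89 CPM in FTO_OE_CS and 34.0 ± 1.74 CPM in WT_CS lungs (SD, n = 3 each), with a log2 fold change of 0.14 ± 0.088 (SE) and an edgeR adjusted p of 0.719. Without FTO_OE_CS replicate 1 the log2 fold change was 0.071.

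Atg7 (ENSMUSG00000030314) stood at 46.0, 39.1 and 44.3 CPM in FTO_OE_CS libraries and at 47.1, 43.3 and 39.7 CPM in WT_CS libraries. Both groups span the same range. The means were 43.1 ± 3.57 CPM in FTO_OE_CS and 43.3 ± 3.72 CPM in WT_CS lungs (SD, n = 3 each), with a log2 fold change of -0.0070 ± 0.098 (SE) and an edgeR adjusted p of 0.991. Its sign is not settled: it was above 0 when libraries were scaled by their totals alone and when FTO_OE_CS replicate 2 or WT_CS replicate 1 was left out. Irf2 and Lgals3bp had the patterns most like that of Atg5, at root mean square differences of 0.017 and 0.018 in log2 CPM. Vps25, a gene of endosomal sorting, and Atp6v0e, a subunit gene of the proton pump of lysosomes, had those most like that of Atg7, at 0.014 and 0.017.

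The rest of the autophagy machinery gave no call either. All 34 other core autophagy genes were tested and 0 passed edgeR in either direction (0 also at an unadjusted p under 0.05, against 9.44% of all genes tested, and 0 with DESeq2 or limma-voom). Their log2 fold changes ran from -0.16 to 0.38 with a median of -0.023. The 3 with the smallest p were Gabarapl1, an LC3 relative, at 184.6 ± 13.0 CPM in FTO_OE_CS and 206.8 ± 3.54 CPM in WT_CS lungs, Atg16l2 at 13.2 ± 3.32 CPM in FTO_OE_CS and 10.1 ± 1.1 CPM in WT_CS lungs, and the membrane-binding protein gene Wipi2 at 64.1 ± 3.15 CPM in FTO_OE_CS and 69.1 ± 1.36 CPM in WT_CS lungs (SD, n = 3 each). Their edgeR adjusted p were 0.601, 0.646 and 0.723.

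Another 16 transcripts reported elsewhere as controlled by FTO were set beside the 8. Of these 13 were tested, and 0 passed edgeR (3 had an unadjusted p under 0.05, all above 0, where 5.77% of all genes tested had one above 0; 1 passed DESeq2, where 2.5% of all genes did, and 0 limma-voom). Their median log2 fold change was 0.14, and -0.0049 without FTO_OE_CS replicate 2. Ccna2, a cyclin gene of dividing cells, averaged 26.1 ± 6.18 CPM in FTO_OE_CS and 9.62 ± 2.55 CPM in WT_CS lungs, 2.71-fold, with an adjusted p of 0.0992 by edgeR and 1.78e-06 by DESeq2. The phosphofructokinase gene Pfkp averaged 77.8 ± 6.98 CPM in FTO_OE_CS and 62.7 ± 4.38 CPM in WT_CS lungs (edgeR adjusted p = 0.315). Pdcd1, the gene of the T cell checkpoint receptor PD-1, averaged 2.84 ± 1.72 CPM in FTO_OE_CS and 1.20 ± 0.335 CPM in WT_CS lungs (SD, n = 3 each; fitted 2.37-fold, edgeR adjusted p = 0.446), and its log2 fold change was 0.63 without FTO_OE_CS replicate 3. The summed cycling cell, T cell and NK cell markers stood higher in all 3 FTO_OE_CS libraries, as given above, though Ncr1 and Klrb1c of the NK list overlapped. The part of these cells in the Ccna2 and Pdcd1 values was not tested.

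**Figure D4:**
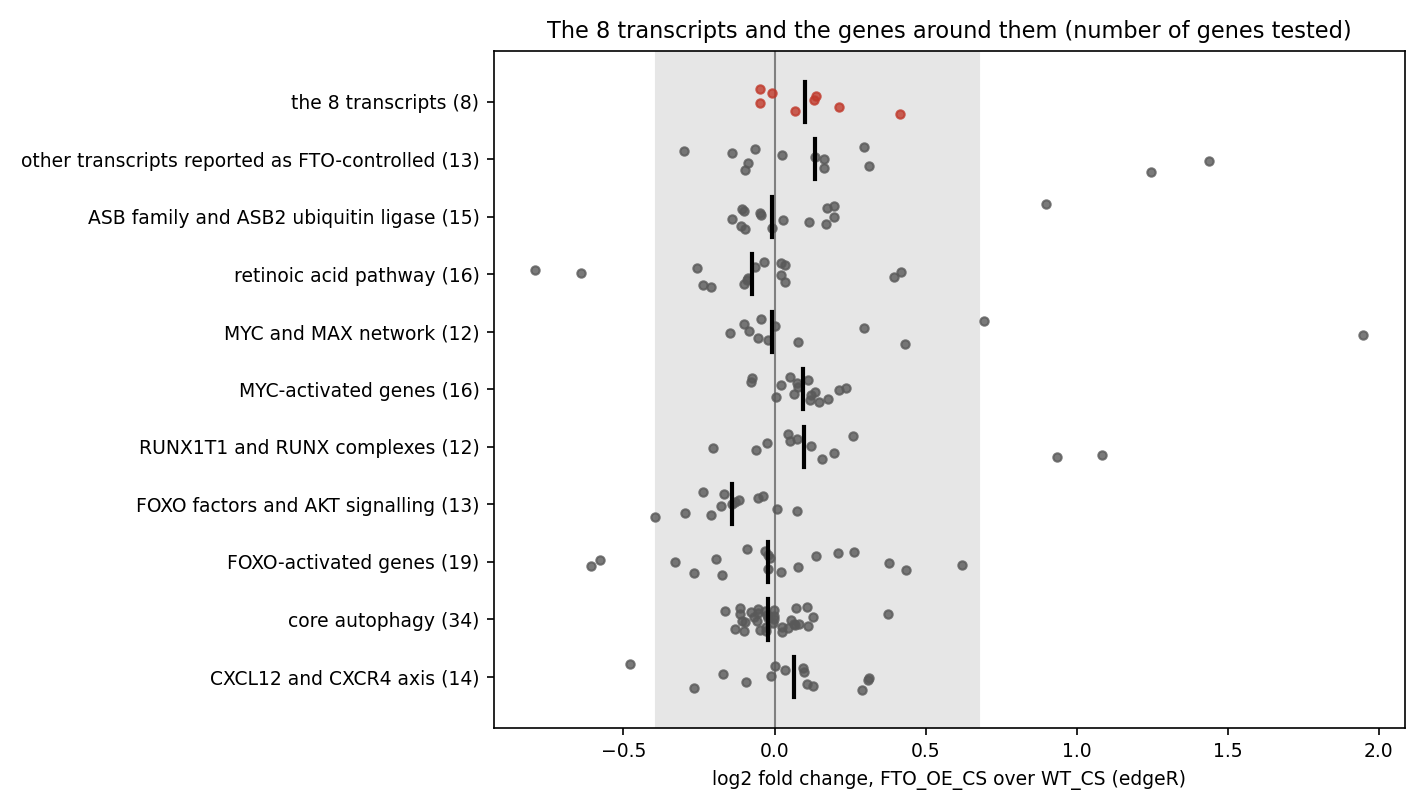
Fitted log2 fold changes of FTO_OE_CS over WT_CS (x axis) for the 8 transcripts (red) and for the genes tested in 10 lists around them (grey), with a black bar for each median and a grey band from the 5th to the 95th percentile of all genes tested. The 8 transcripts all lie inside that band, which runs from -0.39 to 0.68, and the points farthest to the right are Mxd3, Ccna2, Pdcd1, Runx3 and Runx2.

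Scaled to the exon length of each gene, the 8 transcripts kept the same broad order of levels in both groups. In CPM per kb of exon, Cxcr4 was highest, with 28.4 ± 0.612 in FTO_OE_CS and 29.4 ± 6.66 in WT_CS lungs, followed by Atg5 with 15.9 ± 1.23 in FTO_OE_CS and 14.4 ± 0.738 in WT_CS lungs. Rara (9.92 ± 0.441 in FTO_OE_CS and 9.45 ± 0.378 in WT_CS) and Foxo1 (9.86 ± 0.510 in FTO_OE_CS and 9.01 ± 0.379 in WT_CS) came next and their libraries overlapped. Atg7 stood at 6.19 ± 0.513 in FTO_OE_CS and 6.22 ± 0.533 in WT_CS and Myc at 3.86 ± 0.226 in FTO_OE_CS and 3.33 ± 0.732 in WT_CS lungs. Asb2 (1.82 ± 1.27 in FTO_OE_CS and 1.36 ± 0.434 in WT_CS) and Runx1t1 (0.861 ± 0.0093 in FTO_OE_CS and 0.891 ± 0.223 in WT_CS) were lowest (SD, n = 3 in each group). The ranges over the 6 libraries did not overlap between Cxcr4 and Atg5, Atg5 and Rara, Foxo1 and Atg7, or Atg7 and Myc. Those of Myc and Asb2 overlapped through FTO_OE_CS replicate 2, and those of Asb2 and Runx1t1 also overlapped. The median over 16654 tested genes with a length was 4.67 CPM per kb, so Myc, Asb2 and Runx1t1 were below it and the other 5 above.

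**Figure D5:**
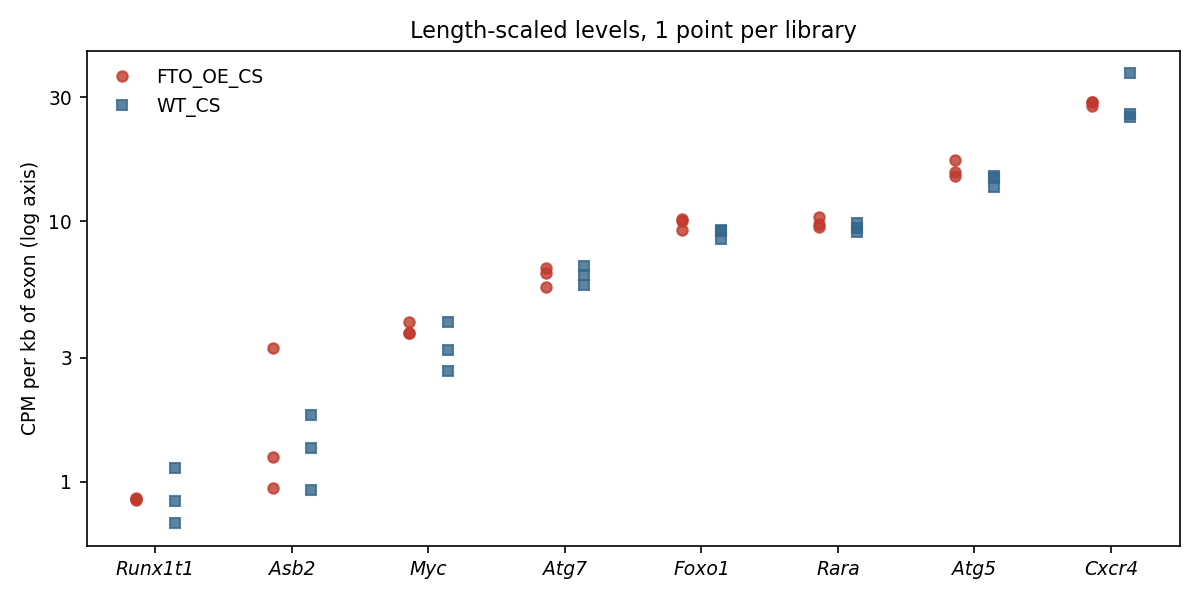
CPM per kb of exon (y axis, log scale) of each of the 8 transcripts in the 3 FTO_OE_CS libraries (red circles) and the 3 WT_CS libraries (blue squares), 1 point per library. Levels rise from Runx1t1, near 1 CPM per kb, to Cxcr4, near 30, and within each gene the groups overlap.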

How the data were processed

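Lung RNA was measured in 6 samples from smoke-exposed mice, 3 FTO_OE_CS and 3 WT_CS. TRIzol extraction and Illumina's stranded mRNA preparation are stated per the labels' protocols. fastp, HISAT2 and StringTie are listed per the submitters' processing notes; for the genome build, annotation, counting program and strand setting the entry is: not given in the sources used here. Reads of overlapping genes may therefore not be told apart. The authors deposited expected counts, estimated per gene and not scaled to library size; 9.66% to 10.3% of rows in a library were not whole. The 525 rows without a symbol took 0.119% to 0.143% of counts.

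Counts were rounded and tested in R 4.3.3 with edgeR 4.0.16 (filterByExpr, TMM, quasi-likelihood F-test, group as the only term), with Benjamini-Hochberg adjustment over 16989 genes and a threshold of 0.05. SE and 95% intervals come from the same F statistic, and levels are TMM-scaled CPM with the SD over 3 libraries. DESeq2 1.42.0 and limma-voom (limma 3.58.1) were alternatives. Libraries of a group differed by 28.1 to 48.7 times what counting alone gives (chi-square per degree of freedom), so none was treated as a duplicate. The procedure was tested on simulated data. Exon lengths and the GGACT search used GENCODE M21 (GRCm38); 14634 of 16989 tested genes had a coding transcript there.

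The 8 genes, the lists around them and the marker lists were chosen with earlier results of these data known. Named genes are the 8, Fto, the 3 genes with the smallest p of each list (or all that passed), and for each of the 8 the 2 genes with the most like pattern among those with an average log2 CPM of at least 3, predicted Gm and Rik loci left out; marker lists are given as sums, with the first 2 genes of a list as its defining ones. Cxcl12 stands outside this rule, and some genes that the rule names are not reported here. The marker lists of NK cells, neutrophils, alveolar type 2 cells, fibroblasts, smooth muscle, mesothelium and erythroid cells had 1 of 10, 0 of 7, 0 of 6, 0 of 7, 0 of 5, 0 of 4 and 0 of 5 tested members past the edgeR threshold. The monocyte and macrophage and fat cell lists had 0 of 8 and 0 of 5. At an unadjusted edgeR p under 0.05 the counts of these 9 lists were 9, 0, 3, 2, 0, 3, 0, 3 and 0 (9.44% of all genes tested). With DESeq2 7, 0, 2, 0, 0, 0, 0, 1 and 0 passed (2.5% of all genes), and with limma-voom 0 in each.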

Additional observations from a re-analysis of the deposited data

How the results depend on the processing

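No setting passed any of the 8 transcripts: 0 of 8 were called under RLE, upper-quartile or library-total scaling, without a filter, with a mean of at least 50 counts, when mitochondrial, immunoglobulin and haemoglobin genes were removed, with limma-voom or DESeq2, at an adjusted p of 0.1, with the replicate block or without any 1 library. Of 128 fold changes of the 8 under these settings, 122 kept their sign and 6 turned. Those 122 include the 8 at an adjusted p of 0.1, which repeat the main fit and could not turn. Leaving out each library in turn gave log2 fold changes from -0.31 to 0.72 for Asb2, -0.19 to 0.16 for Runx1t1, -0.067 to 0.062 for Atg7 and -0.15 to 0.16 for Cxcr4; Atg7 was 0.024 with library totals only. The cause was not tested. The number of genes passed over the whole table was 16, and 287 without a filter, 31 when mitochondrial, immunoglobulin and haemoglobin genes were removed, 5 with limma-voom, 424 with DESeq2, 70 at an adjusted p of 0.1 and 1 to 49 without 1 library (1 without FTO_OE_CS replicate 2 or WT_CS replicates 2 or 3, 6 without FTO_OE_CS replicate 3 and 49 without FTO_OE_CS replicate 1). Deviations of same-numbered libraries from their group means correlated at 0.10, -0.28 and -0.28 over genes. Deviations within a group sum to 0, so these values cannot decide whether replicate numbers pair the libraries. By chi-square per degree of freedom, libraries numbered 1, 2 and 3 differed between groups by 20.9, 39.9 and 41.6, the first being the lowest of all pairs. With the replicate block 2 genes passed, 1 of them among the 16. Of 462 fold changes of the 31 other genes taken from the lists, each under settings added after seeing the data, 0 turned and 10 passed the threshold, in DESeq2 or without a filter. The medians of the ASB, MYC and MAX, FOXO-activated and autophagy lists, all close to 0, changed sign when single libraries were left out. Asb2, Myc and Runx1t1 had the fewest counts of the 8, with 63 to 243 in a library.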

Other observations

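Over all genes tested, the deviations of FTO_OE_CS replicate 2 and WT_CS replicate 3 from their group means correlated at 0.40, the highest of the 9 pairs of libraries across the groups (a correlation across genes, which are not independent replicates). These are the libraries that stood highest in their groups for muscle markers, at 1228.1 and 623.9 summed CPM, and for Asb2, at 11.6 and 6.38 CPM. FTO_OE_CS replicate 2 was also highest in smooth muscle markers, at 906.5 summed CPM, and in fat cell markers, at 82.9. What the 2 libraries share was not tested.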
